A study of Mus musculus with 12 samples.

Results

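The leukocyte adhesion genes of activated endothelium taken up here were 7: Vcam1, Icam1, Icam2, Sele, Selp, Selplg and Madcam1. They were chosen by gene symbol, and 6 of the 7 had a transcript cluster (the array's set of probes for a transcript) named with that symbol alone, out of 19938 genes measured. Selp was not analysed here. RNA came from pools of Langerhans islets of 8 week old Rip1Tag2 mice on a C57BL/6 background, a strain in which the insulin promoter drives the SV40 T antigen in beta cells, so that islets turn stepwise into tumors. The 12 pools, 6 of angiogenic and 6 of non angiogenic islets, were each measured on an Affymetrix mouse gene array. All pools carried the same transgene, and normal islets were not among them. Islets had been sorted by their appearance after collagenase digestion and a density gradient. How many islets went into a pool, and whether any mice were shared between pools, is not stated. The p-values therefore reflect pool-to-pool spread, which may be technical, and 6 arrays a group limit the precision. Levels are log2 values normalized by the authors, so a difference of 1 is a doubling.

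Leukocytes leave the blood in steps. Selectins on activated endothelium (E-selectin from Sele, P-selectin from Selp) catch passing cells through sugars carried on ligands such as PSGL-1 (from Selplg), and leukocyte integrins then bind firmly to VCAM-1, ICAM-1, ICAM-2 or MAdCAM-1. Vcam1, Icam1 and Sele are known for their induction by TNF and IL-1 through NF-kappaB, whereas ICAM-2 is carried by resting endothelium, MAdCAM-1 belongs to venules of the gut and its lymphoid tissue, and PSGL-1 sits on the leukocytes themselves.

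Of the 6 genes, Vcam1 rose 1.66-fold in angiogenic islets (limma, threshold of 0.05 on the adjusted p). None of the 6 fell. Selplg, Sele and Icam1 had log2 differences of 0.26, 0.21 and 0.18 and did not pass that test over all arrays. Madcam1 and Icam2 had 0.12 and 0.05. Over all genes tested, 3.55% were higher at this threshold. The median difference of the 6 genes was 0.19, against -0.02 over all genes, and 6 of 6 differences were positive, against 40.1% of all genes. The genes had been chosen with earlier results of these data known, so this is a description and no test. In whole islets, more cells of a type and more RNA per cell cannot be told apart.

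Replicates 1 to 3 of both groups stood apart from replicates 4 to 6. Between these sets of arrays 7349 genes differed at a given group, Vcam1, Selplg and Madcam1 among them. The study speaks of a pair of independent profiling experiments, and no source used here says whether these sets are those experiments. If they are, 6 pools a group are not 6 independent experiments, and the SDs, intervals and p-values over all arrays do not account for that. Each set holds 3 arrays a group, so values within each set, and with the set as a block in the model, stand beside the pooled ones. Array medians lay between 7.30 and 7.38.

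**Figure D1:**
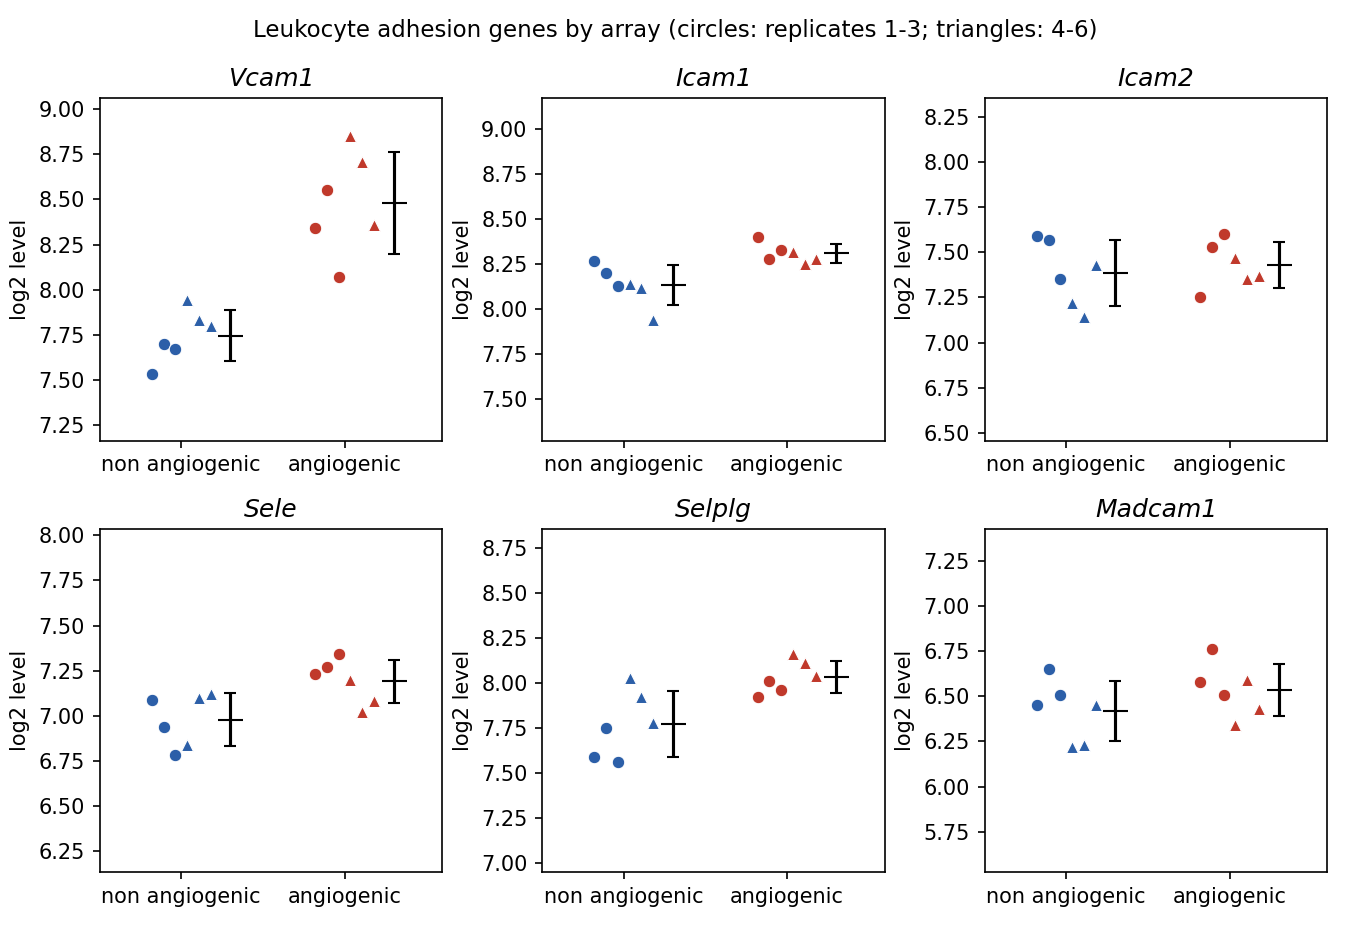
Log2 level of each gene, 1 point per array, for non angiogenic islets in blue and angiogenic islets in red, with circles for replicates 1 to 3, triangles for replicates 4 to 6, and the mean and SD of 6 arrays in black. Each panel spans the same log2 range around its own mean. The groups do not overlap for Vcam1, overlap slightly for Icam1 and widely for Icam2.

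Vcam1 encodes the endothelial receptor for the leukocyte integrin that pairs the alpha 4 and beta 1 chains, and pericytes, fibroblasts and some macrophages carry it too. Its log2 level in angiogenic islets had a lowest value of 8.07, a median of 8.46 and a highest value of 8.85. In non angiogenic islets these were 7.53, 7.75 and 7.94. Every angiogenic array thus lay above every non angiogenic one, a pattern found for 2.85% of all genes. The means were 8.48 ± 0.28 (SD, n = 6) and 7.74 ± 0.14 (SD, n = 6), a log2 difference of 0.73 with a 95% interval from 0.49 to 0.98 (adjusted p = 0.0011 from limma). The study had picked Vcam1 as an endothelial marker on these same arrays, so its direction here is not independent evidence. The study also reported a rise of Vcam1 by RT-qPCR, which was not examined here. Within replicates 1 to 3 the difference was 0.69 (SE 0.11), and within replicates 4 to 6 it was 0.78 (SE 0.11). The test of unlike differences in the sets gave adjusted p = 0.93 from limma. Vcam1 passed in all 12 fits without 1 array, with differences from 0.66 to 0.82.

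Icam1 encodes the inducible ligand of the leukocyte integrin LFA-1. Its log2 level in angiogenic islets was 8.25 at the lowest, 8.30 at the median and 8.40 at the highest. The non angiogenic arrays had 7.94, 8.13 and 8.27. The angiogenic value was the higher one in 35 of the 36 pairs that set an array of each group side by side. The log2 difference was 0.18 with a 95% interval from 0.06 to 0.29 (adjusted p = 0.10 from limma). Replicates 1 to 3 gave 0.13 and replicates 4 to 6 gave 0.22. Icam1 passed once the set was a block (adjusted p = 0.031 from limma), in a fit that called 5.88% of all genes higher.

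Icam2 encodes the ligand of the same integrin that endothelium holds without activation. Its angiogenic arrays ran from 7.25 through a median of 7.42 to 7.60. Its non angiogenic arrays ran from 7.14 through 7.39 to 7.59. The groups covered nearly the same range, with a difference of 0.05 and a 95% interval from -0.13 to 0.23 (adjusted p = 0.89 from limma). The sign was not the same in the sets, -0.04 in replicates 1 to 3 and 0.14 in replicates 4 to 6. Doubling lies outside that interval, and so does a rise as large as that of Vcam1.

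Sele encodes E-selectin, made mainly by activated endothelium. Its log2 level was 7.02 at the lowest, 7.21 at the median and 7.34 at the highest in angiogenic islets, against 6.78, 7.02 and 7.12 in non angiogenic islets. The difference of 0.21 had a 95% interval from 0.05 to 0.37 (adjusted p = 0.15 from limma). Replicates 1 to 3 carried most of it. There the angiogenic arrays, from 7.23 to 7.34, lay above the non angiogenic ones, from 6.78 to 7.09, a difference of 0.34. In replicates 4 to 6 the ranges of 7.02 to 7.19 and 6.84 to 7.12 overlapped, with a difference of 0.08. The difference between the sets, -0.26 (SE 0.13), did not pass (adjusted p = 0.78 from limma), and neither did Sele with the set as a block (adjusted p = 0.082).

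Madcam1 encodes the gut homing ligand of the integrin that pairs alpha 4 with beta 7. It had 6.34 at the lowest, 6.54 at the median and 6.76 at the highest in angiogenic islets. Non angiogenic islets had 6.22, 6.45 and 6.65, so the groups overlapped over most of their range. The difference of 0.12, with a 95% interval from -0.06 to 0.29, did not pass (adjusted p = 0.62 from limma).

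Selplg, the leukocyte gene of the set, encodes PSGL-1, a ligand of all selectins. It ran from 7.92 through a median of 8.03 to 8.16 in angiogenic islets and from 7.56 through 7.77 to 8.03 in non angiogenic islets. Of the 36 pairs of arrays, 33 had the angiogenic value higher. The log2 difference was 0.26 with a 95% interval from 0.10 to 0.43 (adjusted p = 0.080 from limma). The groups overlapped neither in replicates 1 to 3 (7.92 to 8.01 against 7.56 to 7.75) nor in replicates 4 to 6 (8.04 to 8.16 against 7.78 to 8.03). Vcam1 and Icam1 had no overlap within either set as well. Some gaps were narrow. For Selplg in replicates 4 to 6 the lowest angiogenic value was 8.045 and the highest non angiogenic one 8.028. For Icam1 in replicates 1 to 3 these were 8.28 and 8.275. The share of all genes without overlap within a set of 3 against 3 arrays was not counted. With the set as a block Selplg passed (adjusted p = 0.0050 from limma). Of the 12 fits without 1 array it passed in 1, that without non angiogenic replicate 4 (adjusted p = 0.020 from limma). In the rest of these fits adjusted p ran up to 0.18. Counted by fit, 3 of the 6 genes were higher with the set as a block, namely Vcam1, Icam1 and Selplg. Vcam1 and Selplg passed in replicates 1 to 3 alone, where 2.37% of all genes were higher, and Vcam1 in replicates 4 to 6 alone, where 3.11% were.

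**Figure D2:**
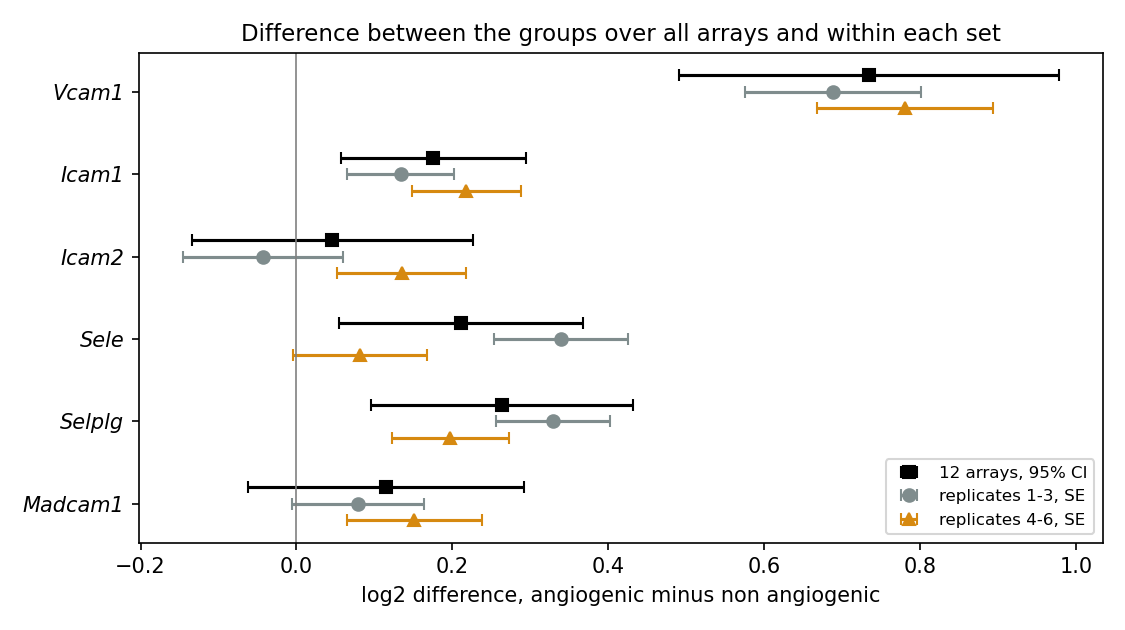
Log2 difference, angiogenic minus non angiogenic, of each gene. Black squares give all 12 arrays with the 95% interval, grey circles replicates 1 to 3 and orange triangles replicates 4 to 6, both with the standard error. Vcam1 stands at 0.73 with like values in the sets, and Icam2 changes sign between them.

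Promoter sequence was at hand for Icam1, Sele and Madcam1, in RefSeq's windows for GRCm38.p6, and the 200 bases before the annotated start are printed since NF-kappaB sites near the start are the known route of Icam1 and Sele induction. The arrays' own build is not named, and all 3 windows lie on the plus strand: Icam1 at chr9:21015740-21015939, Sele at chr1:164048034-164048233 and Madcam1 at chr10:79664359-79664558. Capitals mark matches on either strand to a kappaB core (GGANNNTCC), an AP-1 site (TGANTCA) and a TATA box (TATAAA). No matches overlap.
Icam1: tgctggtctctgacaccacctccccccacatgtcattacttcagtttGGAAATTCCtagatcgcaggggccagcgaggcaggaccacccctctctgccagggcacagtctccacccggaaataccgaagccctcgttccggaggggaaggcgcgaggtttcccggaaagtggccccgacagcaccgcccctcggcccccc
Sele: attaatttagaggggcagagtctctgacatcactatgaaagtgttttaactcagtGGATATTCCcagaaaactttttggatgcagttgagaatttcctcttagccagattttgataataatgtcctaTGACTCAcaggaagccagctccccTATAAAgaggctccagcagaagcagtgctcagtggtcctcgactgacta
Madcam1: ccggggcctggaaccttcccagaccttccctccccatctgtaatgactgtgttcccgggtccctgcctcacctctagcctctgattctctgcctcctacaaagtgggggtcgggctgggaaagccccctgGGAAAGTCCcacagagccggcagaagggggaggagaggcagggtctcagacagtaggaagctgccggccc

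All 3 windows hold the kappaB core, as GGAAATTCC in Icam1 (-153 to -145 from the start), GGATATTCC in Sele (-145 to -137) and GGAAAGTCC in Madcam1 (-70 to -62). Of 32851 promoter windows of this length, 5.95% hold it. Its letters were settled on after these windows had been read, so the count is a description. The Sele window also holds TGACTCA at -73 to -67 and the TATA box at -49 to -44, which 5.48% and 9.96% of all windows hold. The match is shared by 3 genes whose log2 differences were 0.18, 0.21 and 0.12.

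TNF and IL-1 signaling, known to induce these genes, was examined next. Of 27 measured genes of TNF, IL-1 and NF-kappaB signaling, 3 were higher, none was lower and 24 did not pass, with a median difference of 0.01 (5 higher with the set as a block). Tnfaip2, a TNF-induced gene, was 1.51-fold higher (adjusted p = 2.21e-04 from limma), the chemokine gene Ccl2 1.45-fold (adjusted p = 0.0014) and Tnfrsf1b, the type 2 TNF receptor gene, 1.21-fold (adjusted p = 0.040). The largest difference that did not pass was that of the cytokine gene Il6, 0.66 (SE 0.28, limma, adjusted p = 0.28 over all arrays). Il6 passed with the set blocked (limma, adjusted p = 0.0062), and so did Tnf, the cytokine gene itself, whose difference was 0.22 (limma, adjusted p = 0.057 over all arrays and 0.015 blocked). The NF-kappaB feedback gene Nfkbia had a difference of -0.10 and the subunit gene Rela -0.09, with SEs of 0.12 and 0.09.

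Of 9 chains of the integrins that bind these adhesion molecules, 3 were higher and 0 lower, at a median of 0.20. The fit with the set as a block called 5 higher. Not all of these chains are confined to leukocytes. Itga9, whose product binds VCAM-1 and matrix proteins, was 1.55-fold higher (adjusted p = 3.14e-04 from limma). Itgax, the CD11c chain of myeloid cells, was 1.29-fold higher (adjusted p = 0.0029) and Itgb1, the broadly expressed beta 1 chain, 1.15-fold (adjusted p = 0.035). Itga4, the alpha chain of the main VCAM-1 receptor, had a difference of 0.28 (SE 0.10) and did not pass (limma, adjusted p = 0.18 over all arrays and 0.023 with the set blocked). The chains of LFA-1, which binds ICAM-1 and ICAM-2, had 0.26 for Itgb2 (limma, adjusted p = 0.052 over all arrays and 0.0068 with the set blocked) and 0.05 for Itgal (adjusted p = 0.87), and Itgb7, the partner of alpha 4 in the MAdCAM-1 receptor, had -0.03 (adjusted p = 0.91).

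Among 8 measured genes of other selectin ligands, 3 were higher and none lower, with a median of 0.13. All 3 are sialomucins that endothelium also carries, namely Cd34 (1.73-fold), Podxl (1.24-fold) and Emcn (1.22-fold). Cd44, a ligand on leukocytes, had 0.18 and did not pass (adjusted p = 0.49 from limma). Of the 10 enzymes that build the sugars and sulfates of selectin ligands, none passed by limma over all arrays, where the median was 0.05 and the largest difference that of the branching enzyme gene Gcnt1, 0.23 (SE 0.10). With the set as a block 2 of them, Gcnt1 and B4galt1, passed.

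Of 16 genes of transmigration and other endothelial adhesion, 5 were higher and none lower, with a median of 0.04. Cdh5, the VE-cadherin gene, was 1.70-fold higher, the endothelial and pericyte adhesion gene Mcam 1.69-fold, the scavenger receptor gene Stab1 1.67-fold while Pecam1, a junction gene of endothelium, had a difference of 0.58, and the vascular amine oxidase gene Aoc3 was the remaining call. Esam, an adhesion gene of endothelial junctions, had 0.39 and passed with the set blocked (limma, adjusted p = 0.14 over all arrays and 1.08e-04 blocked). The relatives Icam4 and Icam5 had differences of -0.10 and 0.01 and did not pass. Of 7 genes of Weibel-Palade bodies, the granules that store P-selectin, 3 were higher and none lower, with a median of 0.26. These were Plat (1.38-fold), Edn1 (1.24-fold) and Angpt2 (1.19-fold), and Vwf, the main protein of the granule, had 0.40 (SE 0.11, limma, adjusted p = 0.052 over all arrays and 0.023 with the set blocked).

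**Figure D3:**
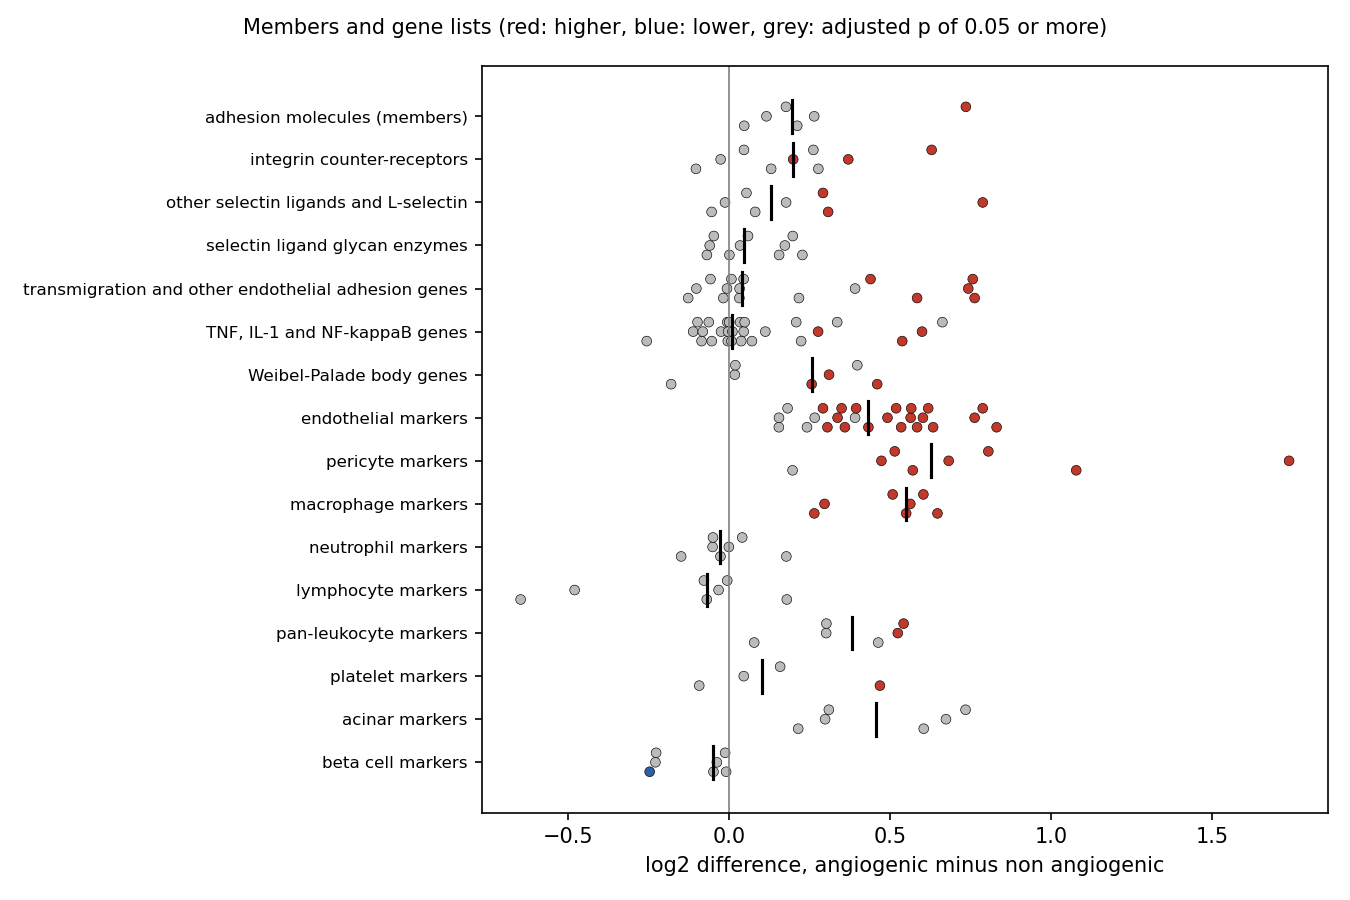
Log2 difference, angiogenic minus non angiogenic, of each gene of the adhesion set and of each gene list, 1 point per gene, with the median of a list as a black line. Red marks genes called higher by limma, blue those called lower and grey the rest. The medians of the endothelial, pericyte and macrophage lists lie at 0.43, 0.63 and 0.55, and that of TNF, IL-1 and NF-kappaB at 0.01.

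Markers of endothelium, pericytes and macrophages were higher too, whereas of the adhesion genes Vcam1 alone passed over all arrays. The lists share genes. Cd34 and Emcn are also among the selectin ligands, and Cdh5, Pecam1 and Esam among the transmigration genes. Endothelial markers were higher in 19 of 25, led by Cd93, Cd34, Cdh5 and Eng (1.78-fold, 1.73-fold, 1.70-fold and 1.55-fold), with array means of 8.96 to 9.14 in angiogenic and 8.54 to 8.69 in non angiogenic islets. Pericyte markers were higher in 7 of 8, led by Acta2, Pdgfrb, Rgs5 and Des, with array means of 8.77 to 9.07 and 8.04 to 8.24. Macrophage markers were higher in 7 of 7, led by Adgre1, Mrc1, Csf1r and Tyrobp, with 8.20 to 8.58 and 7.80 to 8.01. None of these fell, and their part in the rise of Vcam1 was not tested beyond the ratios below.

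Markers of all leukocytes were higher in 2 of 6, Lcp1 (1.46-fold) and Laptm5 (1.44-fold), with array means of 8.50 to 9.02 and 8.07 to 8.91. The overlap came from non angiogenic replicate 4 alone (8.91), as the next highest non angiogenic mean was 8.47. That pool also had the highest lymphocyte mean (6.69) and the highest acinar mean (12.80) of all arrays. Cd53 had 0.46 (SE 0.27) and did not pass over all arrays (limma, adjusted p = 0.49), but passed with the set blocked (0.011). None of 7 neutrophil markers passed, with Csf3r at 0.18, nor did any of 7 lymphocyte markers. Neutrophil array means were 5.73 to 5.89 in angiogenic and 5.67 to 5.90 in non angiogenic islets. Lymphocyte means were 6.00 to 6.08 and 6.03 to 6.69. All lay below the array medians of 7.30 to 7.38, so a missing call says little about these cells. The B cell gene Cd79a had -0.65 (SE 0.18, limma, adjusted p = 0.065 over all arrays). With the set blocked its adjusted p was 0.034 by limma, the 1 lymphocyte call of that fit. Its SD was 0.51 in non angiogenic against 0.14 in angiogenic islets. Of 4 platelet markers Ppbp was higher (1.38-fold) and Pf4 had 0.16. Acinar markers varied widely between arrays, from 8.03 to 11.78 and from 7.80 to 12.80 in the means, and none of 6 passed, with Cpa1 at 0.73 and a standard error of 0.81. Beta cell markers had array means of 11.49 to 11.65 and 11.56 to 11.83. Ucn3 was lower by limma, 0.84 of the non angiogenic level, and Nkx6-1 had -0.23 (adjusted p = 0.057). With the set blocked 3 beta cell genes were lower by limma, Ucn3, Nkx6-1 (adjusted p = 0.018) and the glucose transporter gene Slc2a2 (-0.23, adjusted p = 0.041).

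To set each gene against the endothelial markers of its own pool, their mean was subtracted from its log2 level in each array, and group means were set against all 924 splits of the arrays (exact permutation test, two-sided). These 9 comparisons were chosen after the values had been seen, and their p-values were adjusted over the 9. The mean of the endothelial markers was 0.45 higher in angiogenic islets. A gene with no change falls short of a marker mean that rose. A shortfall is therefore no fall of the gene itself, and its p-value also reflects the rise of the markers. The marker lists were chosen with earlier results of these data known, and the share of all genes that fall short was not counted. Icam2 fell short of it by 0.41 (exact permutation test, adjusted p = 0.013), and the angiogenic value was the higher one in 1 of 36 pairs of arrays. Madcam1 fell short by 0.34 (0 of 36 pairs, exact permutation test, adjusted p = 0.013), Icam1 by 0.28 (2 of 36 pairs, exact permutation test, adjusted p = 0.015) and Sele by 0.24 (5 of 36 pairs, exact permutation test, adjusted p = 0.029). For Sele the shortfall differed by set, 0.09 in replicates 1 to 3 against 0.39 in replicates 4 to 6, and the call was lost in 7 of 12 tests without 1 array (adjusted p up to 0.052). Icam2, Sele and Madcam1 lay below the median level of all genes, while the array means of the endothelial markers ran from 8.54 to 9.14. Changes in dim signals can be compressed on arrays, and the part of this in the shortfalls was not tested, so they are differences on the array scale and no measure of RNA per vessel.

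Vcam1 was the exception in direction. Its rise exceeded that of the endothelial mean by 0.28, which did not pass (exact permutation test, adjusted p = 0.058). Only 2 of 12 tests without 1 array passed, with adjusted p up to 0.11 in the rest. Those were the tests without angiogenic replicate 3 (exact permutation test, adjusted p = 0.016) and without non angiogenic replicate 4 (0.039). Against the mean of the macrophage markers it rose by a further 0.25 (exact permutation test, adjusted p = 0.016), higher in 33 of 36 pairs. Against the pericyte markers, whose mean was 0.76 higher, its difference was -0.02 (exact permutation test, adjusted p = 0.83). Selplg fell short of the macrophage markers by 0.23 (exact permutation test, adjusted p = 0.013), and against the markers of all leukocytes it differed by -0.10 (exact permutation test, adjusted p = 0.28). With splits made within the sets of arrays, 400 in number, the same 6 comparisons passed, at adjusted p = 0.0375 or lower.

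**Figure D4:**
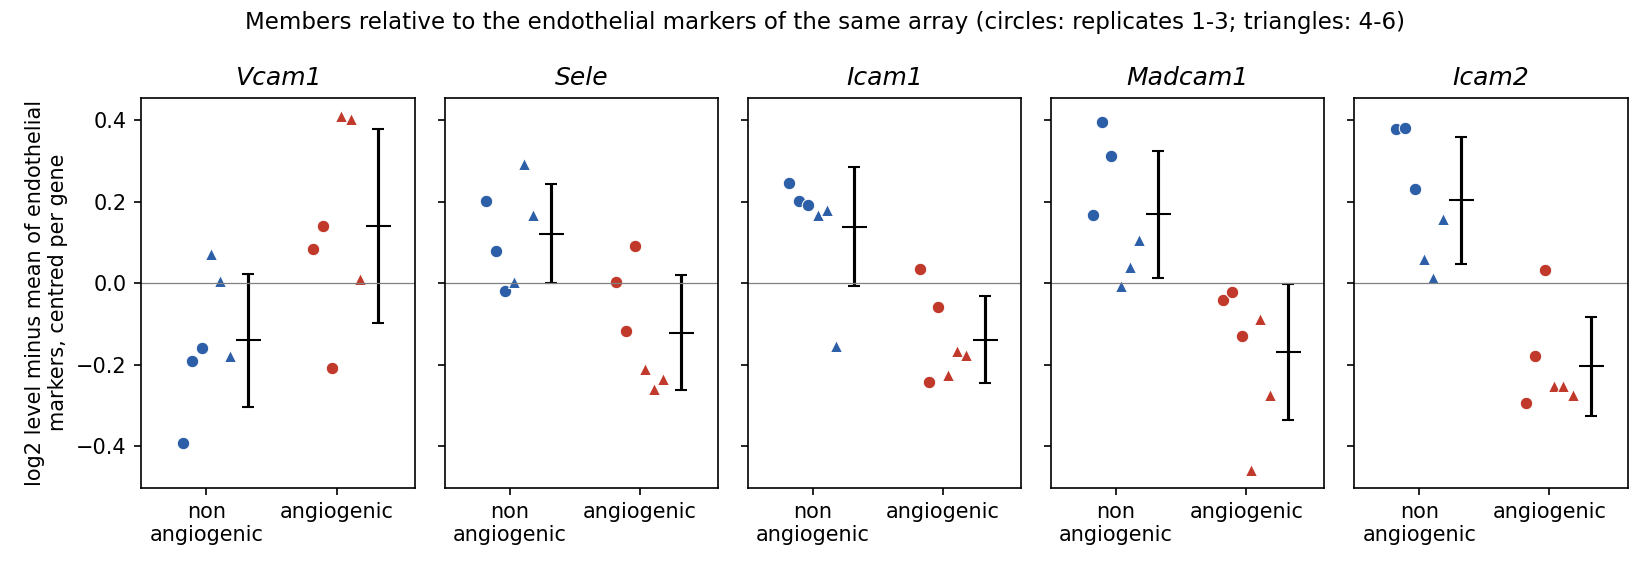
Log2 level of each gene minus the mean of 25 endothelial markers of the same array, centred on the gene's mean over 12 arrays, with 1 point per array (circles for replicates 1 to 3, triangles for replicates 4 to 6) and the mean and SD of 6 arrays in black. Sele, Icam1, Madcam1 and Icam2 are lower in angiogenic (red) than in non angiogenic (blue) islets on this scale, by 0.24 to 0.41, and Vcam1 is higher by 0.28 with overlap.

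Over the 12 arrays, the genes whose centred log2 levels lay nearest to those of Vcam1 were Adgre1, a macrophage surface gene, Naalad2, which encodes a peptidase, and Tfec, which encodes a transcription factor of macrophages. Their root mean square differences from Vcam1 were 0.08, 0.10 and 0.10 on the log2 scale. Their log2 differences were 0.65, 0.67 and 0.68, beside 0.73 for Vcam1. The centred levels hold the difference between the groups, so like differences follow from how these genes were picked.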

How the data were processed

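The authors deposited log2 levels per transcript cluster, made with RMA in Affymetrix Expression Console per the labels, whose version is not given in the sources used here. RMA gives arrays 1 distribution, which hides shifts in total RNA. Values were used as deposited. Clusters were named through the platform annotation. Those with a single symbol (21789 of 35556) were kept, and the brightest was taken for a gene with several. Groups came from the sample titles. The comparison used limma 3.58.1 in R 4.3.3 (lmFit and eBayes, 6 against 6 arrays, two-sided, no covariate), adjusted over 19938 genes by Benjamini-Hochberg, and was tested on simulated data. Intervals are at 95%.

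Same-numbered arrays correlated in their deviations from the group means by 0.03 for replicate 3 and 0.30 to 0.54 for the others, and by -0.34 to 0.12 once set means were removed too, so replicate numbers were not taken as pairs. The members and gene lists were chosen with earlier results of these data known. Named were, per list, up to 4 calls of largest difference, with the top uncalled gene added if calls numbered under 4, and the 3 genes nearest to a called member. Itgb2, Itgal, Itgb7, Nfkbia, Rela, B4galt1, Tnf, Esam, Slc2a2, Aoc3, Icam4 and Icam5 were named after their values were seen. Alternatives covered the test, weights, scaling, dim genes, clusters, blocks, sets and single arrays.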

Additional observations from a re-analysis of the deposited data

How the results depend on the processing

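Vcam1 was higher and passed under all 23 alternatives (log2 difference 0.66 to 0.82, adjusted p up to 0.012). Icam1, Sele, Selplg and Madcam1 were positive under each, and Sele and Madcam1 never passed. Of the genes measured, 3 were higher under a set block and 3 with the replicate number as a block, where 1172 and 1058 of all 19938 genes were. Under the replicate block these were Vcam1, Icam1 (adjusted p = 0.046) and Selplg (0.0061), all by limma. Array weights gave 2 (Vcam1 and Selplg), with 744 of all genes higher. Replicates 1 to 3 alone gave 2, with 473 of all genes higher. When single arrays were left out 1 to 2 were higher, and none was lower under any alternative. Same-numbered arrays share only a number, and 2 of 6 correlated best with their own. Icam2 turned to -0.043 in replicates 1 to 3 alone, and its difference ran from -0.0031 (without non angiogenic replicate 5) to 0.088 without single arrays. Vcam1 minus the pericyte mean ran from -0.082 to 0.034. Over all genes, 467 were higher without genes below the median level, which leaves out Icam2, Sele and Madcam1, and 1172 higher and 547 lower with the set as a block. The replicate block gave 449 lower, replicates 1 to 3 alone 66, and single arrays left out 110 to 178. Of the gene lists, over the alternatives that kept all arrays or 1 set, the number higher ran from 1 to 5 for integrin chains, 1 to 3 for selectin ligands, 0 to 2 for their enzymes, 2 to 5 for TNF, IL-1 and NF-kappaB, 1 to 4 for Weibel-Palade bodies, 1 to 4 for all leukocytes, and 0 to 1 for platelets and for lymphocytes, and the number lower from 0 to 3 for beta cells and 0 to 1 for lymphocytes. The causes were not tested.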
